A study of Mus musculus with 9 samples.

Results

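The genes described here are 7 markers of mesothelium, Wt1, Msln, Upk3b, Upk1b, Lrrn4, Prg4 and Ptx3, out of 17305 named genes with a probe on the array. They were chosen by symbol with earlier results of these arrays known, so their levels and differences between groups are given as a description, with no test. The 7 genes had 8 probes, 2 of them for Ptx3. The probes of 6 of the 7 genes passed the background filter, meaning that at least 1 group had them well above background on each of its 3 arrays, and the probe of Lrrn4 did not.

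RNA of colonic mucosa from ICR mice, an outbred stock, was measured on 9 Agilent 1-colour arrays, 3 in each of 3 groups. All mice carried the same carcinogen treatment, 1,2-dimethylhydrazine (DMH), injected under the skin at 20 mg/kg once a week over 20 weeks. The hCA-Tumor group consisted of tumor-bearing mice fed 3% calcium, and its mucosa is labelled normal. The hCA-Notumor group had the same diet and injections and no tumors. The DMH group had 1.24% calcium in its diet and the same injections, and its labels do not give whether its mice bore tumors. The labels give neither sex nor age, and there was no group without the carcinogen. The arrays of a group are labelled as replicates, but nothing says that they came from separate mice, so the p-values below rest on the spread among these arrays alone, some of which may be technical.

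Mesothelium is the single layer of flat cells of mesodermal origin that lines the body cavities and covers the outer face of the gut, where it secretes a lubricating film. In the colon wall it lies outside the muscle, with the serosal fibroblasts and fat beneath it, on the far side from the mucosa. Its cells combine keratins of simple epithelia with mesodermal transcription factors, make retinoic acid, and release matrix and inflammatory proteins after injury.

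Levels are log2 of the processed signal minus the array's 75th percentile, so that 0 marks a probe as bright as the 75th percentile of its array. That percentile was a signal of 572.5 to 819.2 on the 9 arrays, and 61.1% to 73.8% of 41174 probes per array were well above background. The arrays lay on 3 slides. Slide 1 held the 3 hCA-Notumor arrays and DMH replicate 1, slide 2 held hCA-Tumor replicates 1 and 2 with DMH replicates 2 and 3, and slide 3 held hCA-Tumor replicate 3. The difference of hCA-Tumor from DMH could thus be taken within slide 2, and that of hCA-Notumor from DMH within slide 1, but no slide held both high calcium groups. Replicate 3 of hCA-Tumor stood apart, with 747 of 21105 features at least 2 log2 units above both other arrays of its group, against 6 to 72 on the other 8 arrays. Epithelial genes were measured in all groups, and so were genes of deeper layers of the colon wall.

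Upstream sequences of members were searched for motifs. RefSeq promoters (build GRCm38.p6, 250 bases before to 50 after the start) were at hand for 3 of the 7 members: Upk3b on the plus strand at chr5:136038246-136038545, Lrrn4 on the minus strand at chr2:132880813-132881112, and Ptx3 on the plus strand at chr3:66219637-66219936. They are shown because no other member promoter was at hand. Upk3b and Lrrn4 are surface markers of the resting layer, while Ptx3 is a secreted protein induced by inflammation. Capitals mark the TEAD motif GGAATG, on either strand, and the NF-kappaB motif, searched on both strands.
Upk3b promoter: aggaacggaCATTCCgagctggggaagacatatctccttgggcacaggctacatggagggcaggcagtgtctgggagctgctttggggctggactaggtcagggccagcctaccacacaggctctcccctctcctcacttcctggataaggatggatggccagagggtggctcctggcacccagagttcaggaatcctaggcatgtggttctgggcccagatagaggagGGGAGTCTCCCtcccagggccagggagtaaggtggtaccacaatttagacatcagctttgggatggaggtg
Lrrn4 promoter: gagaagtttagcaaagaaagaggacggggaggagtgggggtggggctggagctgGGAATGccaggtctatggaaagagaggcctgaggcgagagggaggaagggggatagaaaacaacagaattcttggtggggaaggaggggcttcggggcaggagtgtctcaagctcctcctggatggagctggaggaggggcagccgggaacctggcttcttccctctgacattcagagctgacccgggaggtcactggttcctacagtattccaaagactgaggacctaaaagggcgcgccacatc
Ptx3 promoter: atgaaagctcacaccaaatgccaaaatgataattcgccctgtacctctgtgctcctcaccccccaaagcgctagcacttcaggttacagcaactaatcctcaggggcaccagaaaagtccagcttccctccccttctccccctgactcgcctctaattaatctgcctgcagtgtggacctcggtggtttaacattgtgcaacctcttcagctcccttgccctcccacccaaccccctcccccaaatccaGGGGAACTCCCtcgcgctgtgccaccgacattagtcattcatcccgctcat
Upk3b and Lrrn4 each held 1 TEAD match, at position -241 on the minus strand and at -196 on the plus strand relative to the start, and Ptx3 held 0. TEAD factors are the DNA-binding partners of Yap1. The letters GGAATG occur in 14.7% of all 32851 promoters of the table. NF-kappaB mediates induction by interleukin 1 and tumor necrosis factor. Its motif was matched 2 times in Upk3b, in overlapping positions near the start, 3 times in Ptx3, again overlapping, and 0 times in Lrrn4. Of the Ptx3 matches, 2 were the same bases read on both strands. The motif occurs in 8.46% of promoters, and no motif was matched in all 3 windows. No TEAD match overlapped an NF-kappaB match. The letters GCGTGGG and GCGGGGG, which the WT1 and EGR zinc fingers bind, were matched 0 times in these 3 windows and occur in 5.04% and 10.8% of promoters. A match describes the letters only.

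Wt1 encodes the zinc-finger transcription factor that marks mesothelium and its progenitors. It measured -3.92, -4.02 and -4.11 on the hCA-Tumor arrays, against -7.87, -7.18 and -8.22 on the hCA-Notumor arrays and -6.61, -6.35 and -5.98 on the DMH arrays. Its probe was well above background on all 3 hCA-Tumor arrays, on 0 of 3 hCA-Notumor arrays and on 1 of 3 DMH arrays, replicate 3. The raw signals behind these values were small, 35.4 to 44.6 in hCA-Tumor, 2.16 to 4.49 in hCA-Notumor and 7.54 to 13.0 in DMH. The 3 groups did not overlap, with hCA-Tumor highest and hCA-Notumor lowest. On 2 of 3 DMH arrays the signals were not well above background. As read, the mean of hCA-Tumor exceeded that of DMH by 2.29 log2 units (n = 3 per group), and by 2.19 within slide 2. Against hCA-Notumor, where the probe has only a bound, hCA-Tumor was at least 6.29-fold higher. The corresponding value puts hCA-Notumor at least 1.28-fold lower than DMH. There 1 of 3 arrays measured the gene, so it is not a strict bound. For such a bound, 1 group has the probe well above background on 0 of 3 arrays. Each of its arrays is given the dimmest signal still well above background on it, or the probe's own value where higher. Arrays of the other group keep their own values, measured or not. Those dimmest signals lay at -6.89 to -5.78. Brighter ones could miss the flag, as a Ptx3 probe did at -4.81 on hCA-Tumor replicate 2, so the bounds rest on that floor.

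Msln encodes mesothelin, a surface glycoprotein of mesothelial cells that some epithelial tumors also make. It was well above background on all 9 arrays. Its levels were 1.29, 1.25 and 1.02 in hCA-Tumor, -0.88, -0.71 and -0.83 in hCA-Notumor and 0.73, 1.01 and 0.74 in DMH. The hCA-Notumor arrays were far below the other 6, whereas hCA-Tumor replicate 3 and DMH replicate 2 lay almost level. The mean of hCA-Notumor was 3.10-fold lower than that of DMH (-1.63 log2, SE 0.11), and -1.53 within slide 1. Tumor-bearing mice on the same diet were 3.98-fold above those without tumors, and 1.28-fold above DMH (0.36 log2, SE 0.11).

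The uroplakins are membrane proteins known from the umbrella cells of the urothelium, and Upk3b and Upk1b are also made by mesothelium. Upk3b measured -3.10, -3.18 and -3.35 in hCA-Tumor, -6.52, -6.65 and -6.09 in hCA-Notumor and -4.35, -3.97 and -4.17 in DMH. All arrays of hCA-Tumor and DMH measured it, and 0 of 3 hCA-Notumor arrays did. The hCA-Notumor mean was therefore at least 4.64-fold below DMH and at least 8.97-fold below hCA-Tumor, whose own mean was 1.93-fold above DMH (0.95 log2, SE 0.16). Upk1b, a tetraspanin that pairs with Upk3 proteins, was measured on every array, at -1.33, -1.37 and -1.51 in hCA-Tumor, -2.74, -2.93 and -2.87 in hCA-Notumor and -2.46, -2.65 and -2.38 in DMH. Here hCA-Tumor stood clear of both other groups, 2.13-fold above DMH (1.09 log2, SE 0.09) and 2.72-fold above hCA-Notumor. The hCA-Notumor and DMH groups of Upk1b were close, -0.35 log2 apart (SE 0.09), and the nearest arrays, hCA-Notumor replicate 1 and DMH replicate 2, differed by less than the range within either group. For Upk3b and Msln it was hCA-Notumor that stood farthest from the other groups, and for Upk1b it was hCA-Tumor.

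Lrrn4, a leucine-rich repeat membrane protein, was barely measured. It was well above background on hCA-Tumor replicate 1 (-5.00) and DMH replicate 3 (-5.74), and on 0 of 3 hCA-Notumor arrays. Its group means were -5.31 ± 0.33 in hCA-Tumor, -7.12 ± 0.45 in hCA-Notumor and -6.02 ± 0.40 in DMH (SD, n = 3 each). With the same floor for the undetected group, hCA-Notumor was at least 1.48-fold lower than DMH and at least 2.43-fold lower than hCA-Tumor. In DMH and in hCA-Tumor alike 1 of 3 arrays measured the gene, so neither value is a strict bound.

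Prg4 and Ptx3 are secreted. Prg4 encodes lubricin, the glycoprotein that lubricates joint surfaces, and measured -3.15, -3.35 and -3.44 in hCA-Tumor, -7.29, -3.90 and -6.96 in hCA-Notumor and -7.17, -6.57 and -6.05 in DMH. All 3 hCA-Tumor arrays measured it, as did hCA-Notumor replicate 2, and 0 of 3 DMH arrays did. That 1 hCA-Notumor array decides the place of its group. On the other 2 arrays of that group and on all 3 of DMH the probe was not well above background. Without replicate 2 the gene thus has no order between hCA-Notumor and DMH. The same array also had 35 features at least 2 log2 units above both others of its group, and a Cdh5 level (vascular cadherin of endothelium) of 5.62 against a group minimum of -1.22. The part of that array's other signals in its Prg4 value was not tested. Against DMH, hCA-Tumor was at least 7.02-fold higher for Prg4.

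Ptx3 encodes the long pentraxin 3, a soluble pattern recognition protein that binds the hyaluronan matrix. Its brighter probe measured -3.62, -2.81 and -3.74 in hCA-Tumor, all well above background. The hCA-Notumor values were -7.57, -7.19 and -7.14 and the DMH values -7.14, -6.59 and -6.47, none well above background. Those 6 arrays therefore have no order among themselves, and the gene was measured in hCA-Tumor only, at least 9.72-fold above hCA-Notumor and at least 6.77-fold above DMH. The second probe, dimmer and well above background on 2 of 3 hCA-Tumor arrays, also set hCA-Tumor above the rest, at least 4.01-fold over hCA-Notumor and 2.79-fold over DMH.

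**Figure D1:**
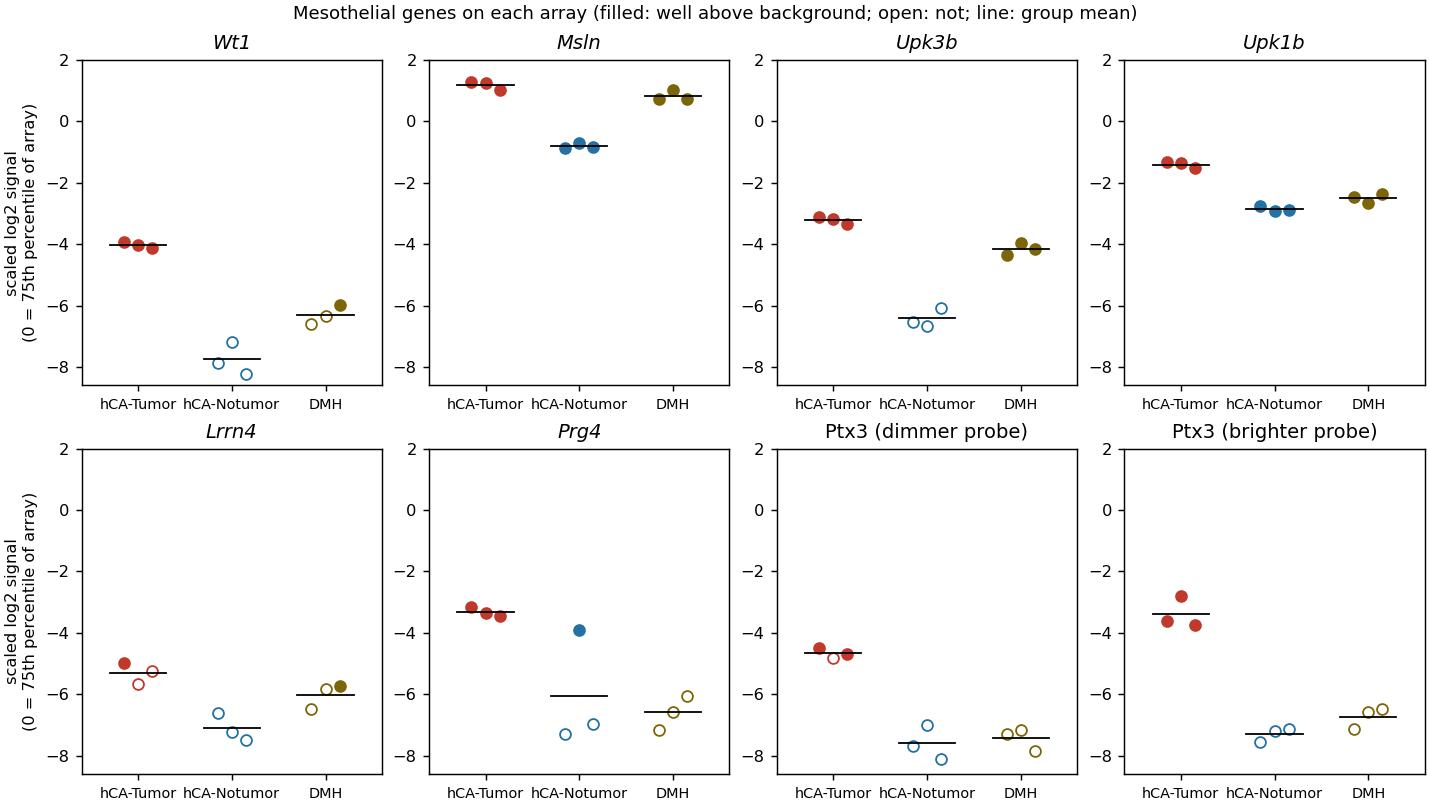
Scaled log2 signal (y axis, 0 is the 75th percentile of the array) of each probe of the 7 genes on each array, by group (x axis). Filled points are well above background, open points are not, and lines are group means; Msln and Upk1b are filled on all 9 arrays, and the lone filled hCA-Notumor point of Prg4 is replicate 2 at -3.90.

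Counted by array, 7, 6 and 6 of the 7 genes were well above background in hCA-Tumor, 2, 3 and 2 in hCA-Notumor, and 3, 3 and 5 in DMH. Beyond Msln and Upk1b, the hCA-Notumor arrays thus gave no measured member except Prg4 on replicate 2. Every hCA-Tumor array exceeded every DMH array for 7 of 7 genes, where 28.2% of all 21105 features did so. Every hCA-Tumor array also exceeded every hCA-Notumor array for 7 of 7, against 33.2% of all features. The hCA-Notumor arrays lay below every DMH array for 6 of 7, all but Prg4, against 24.1% of features. For Ptx3 no array of either group was well above background. For Wt1 and Lrrn4 no hCA-Notumor array and 1 of 3 DMH arrays was, so these orders rest mostly on unmeasured signals. Since these contrasts were used in choosing the genes, nothing is read from the counts, and both comparisons with DMH share the DMH arrays. The signals of the 6 genes past the filter, in multiples of the 75th percentile, summed to 2.71 to 3.22 in hCA-Tumor, 0.718 to 0.835 in hCA-Notumor and 1.91 to 2.27 in DMH. Msln made up 74.8% to 76% of that sum in hCA-Tumor, 73.4% to 76.8% in hCA-Notumor and 85.2% to 88.7% in DMH. In bulk tissue, fewer mesothelial cells and less RNA per cell cannot be told apart. Whether these signals came from mesothelial cells was not tested.

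Without hCA-Tumor replicate 3, which stood apart on other features, the differences of hCA-Tumor from DMH were 2.34 for Wt1, 0.44 for Msln, 1.02 for Upk3b and 1.14 for Upk1b, all larger than with it. Another background correction, which adds 50 to each signal, shrank differences between dim values. At the signals so corrected, dim ones included, hCA-Tumor exceeded hCA-Notumor by 0.51 for Wt1, 0.66 for Upk3b, 0.80 for Upk1b, 0.78 for Prg4 and 0.69 for Ptx3, while bright Msln kept 1.78. The differences of hCA-Notumor from DMH under that correction were -1.44 for Msln, -0.21 for Upk3b, -0.15 for Upk1b and -0.06 for Wt1, with 0.05 for Ptx3 and -0.05 for Prg4. Those of hCA-Tumor from DMH were 0.45 for Wt1 and Upk3b, 0.65 for Upk1b, 0.73 for Prg4 and 0.75 for Ptx3. The fold sizes of the dim genes, the bounds above included, therefore rest on the background correction.

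The genes were not copies of 1 profile. Over the 9 arrays, with each gene centred on its own mean, the levels of Wt1 spanned 4.30 log2 units, Msln 2.17, Upk3b 3.55, Upk1b 1.60, Prg4 4.14 and Ptx3 4.76. The closest pair was Msln and Upk3b, with a root mean square difference of 0.52 log2 units per array, followed by Msln and Upk1b at 0.55 and Wt1 and Ptx3 at 0.58. Upk3b and Prg4 were farthest apart, at 1.58. These spans and distances include signals not well above background, which all but Msln and Upk1b had. In Msln and Upk3b the DMH arrays lay nearer to hCA-Tumor than to hCA-Notumor, and in Upk1b nearer to hCA-Notumor. For Wt1, Prg4 and Ptx3 too few of these arrays were well above background to say.

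Among all other named features, the 8 closest to the mean profile of the 6 genes were Aqp5, Dio3, Dapl1, Cthrc1, Timp1, Sfrp4, Cttnbp2 and Ecrg4, with root mean square differences of 0.23 to 0.43. Aqp5, a water channel, averaged -2.62 in hCA-Tumor, -5.24 in hCA-Notumor and -4.42 in DMH. Dio3, the deiodinase that inactivates thyroid hormone, averaged -4.10 in hCA-Tumor, -6.83 in hCA-Notumor and -5.76 in DMH, and was well above background on 0 of 3 hCA-Notumor arrays. Timp1, an inhibitor of matrix metalloproteinases, was bright enough to be measured on all arrays and averaged 1.01 in hCA-Tumor, -1.24 in hCA-Notumor and -0.15 in DMH. Sfrp4, a secreted Wnt antagonist, averaged -0.27 in hCA-Tumor, -2.56 in hCA-Notumor and -2.38 in DMH. These 8 were picked for the likeness, so their levels are a description as well. Nearest to single members were Cthrc1 for Wt1, Krt15 for Msln, Pnliprp1 for Upk3b, Dct for Upk1b, Depp1 for Prg4 and Scnn1g for Ptx3. Their root mean square differences ran from 0.14 for Dct to 0.71 for Depp1.

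**Figure D2:**
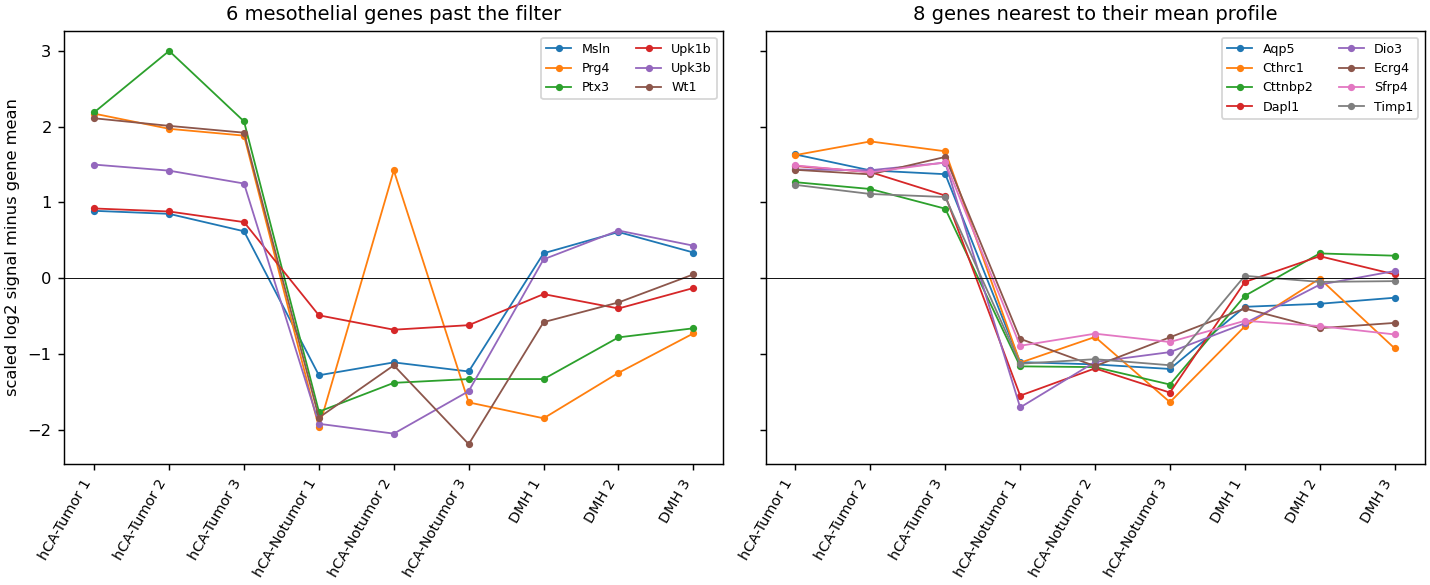
Scaled log2 signal minus the gene's mean over the 9 arrays (y axis) on each array (x axis), for 6 mesothelial genes (left) and the 8 named genes nearest to their mean profile (right). All lines are highest on the hCA-Tumor arrays, and Prg4 departs from the others on hCA-Notumor replicate 2.

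Other genes known from mesothelium did not all follow the 7. Of 16 such genes, 13 had a named probe and 10 passed the background filter. In hCA-Tumor against DMH, 2 of the 10 rose and 4 fell, beside 21% of all features called higher and 15.9% called lower (limma, Benjamini-Hochberg adjusted p under 0.05). Their median difference was 0.21, against 0.08 over all features. In hCA-Notumor against DMH, 2 rose and 4 fell, beside 18.3% and 17.2% of features, with a median of -0.28 against 0.07. In hCA-Tumor against hCA-Notumor, 6 rose and 3 fell, beside 26.9% and 20.5% of features, with a median of 0.43 against 0. With slide as a block the counts of rises and falls were 4 and 4 for hCA-Tumor and 0 and 4 for hCA-Notumor, both against DMH, and 5 and 2 between both high calcium groups.

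Rspo1, a secreted amplifier of Wnt signaling, differed in the same directions as Wt1, Msln and Upk3b. It measured -1.57, -1.63 and -1.66 in hCA-Tumor, -3.77, -3.61 and -3.50 in hCA-Notumor and -2.52, -2.37 and -2.48 in DMH, with no overlap of groups. It rose by 0.84 (SE 0.08) in hCA-Tumor against DMH (limma adjusted p = 0.000352) and was 2.01 higher (SE 0.08) in hCA-Tumor than in hCA-Notumor (limma adjusted p = 8.12e-06). In hCA-Notumor it fell by 1.17 (SE 0.08) against DMH (limma adjusted p = 5.84e-05), a call that ended with the other background correction (-0.34, limma adjusted p = 0.173).

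Gpm6a, a membrane glycoprotein of neurons and mesothelium, averaged -3.59 ± 0.11 in hCA-Tumor, -4.33 ± 0.04 in hCA-Notumor and -4.07 ± 0.06 in DMH (SD, n = 3 each). It was 0.74 higher (SE 0.07) in hCA-Tumor than in hCA-Notumor (limma adjusted p = 0.000158), and 0.23 (limma adjusted p = 0.405) with the other background correction. Its calls against DMH, 0.48 (SE 0.07) in hCA-Tumor and -0.26 (SE 0.07) in hCA-Notumor, ended with that correction, at 0.20 (limma adjusted p = 0.516) and -0.03 (limma adjusted p = 0.915). They ended with array-median scaling too, and the second also within slide 1 (-0.22, limma adjusted p = 0.125) and without DMH replicate 2 or 3 or hCA-Notumor replicate 1 or 3 (limma adjusted p = 0.0506 to 0.068). Nkain4, a partner of the sodium pump, was 0.78 higher (SE 0.17) in hCA-Tumor than in hCA-Notumor (limma adjusted p = 0.00763), and 0.60 with the other background correction (limma adjusted p = 0.0716). A dimmer Nkain4 probe gave 0.50 there, with overlapping groups. In hCA-Notumor against DMH the brighter probe gave -0.29 and the dimmer 0.16. Aldh1a2, the retinaldehyde dehydrogenase of mesothelium, was 0.98 higher (SE 0.31) in the same comparison (limma adjusted p = 0.0355), and its call ended without any 1 of the hCA-Notumor arrays or without hCA-Tumor replicate 2 or 3 (limma adjusted p = 0.0584 to 0.111). With slide as a block that difference was 1.99.

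Pdpn, Cldn15 and Thbd fell in hCA-Tumor against DMH. Pdpn, podoplanin, a mucin-like surface protein of mesothelium and lymphatic vessels, measured -3.31, -3.29 and -3.35 in hCA-Tumor, -2.49, -2.28 and -2.49 in hCA-Notumor and -2.75, -2.94 and -2.76 in DMH. It fell by 0.50 (SE 0.08) in hCA-Tumor against DMH (limma adjusted p = 0.00253) and differed by -0.90 (SE 0.08) between hCA-Tumor and hCA-Notumor (limma adjusted p = 0.000149). Against DMH the first call ended with the other background correction (-0.18, limma adjusted p = 0.419), and the rise of Pdpn in hCA-Notumor (0.40) turned to -0.0046 when its probes were averaged. Cldn15, a claudin also known from intestinal epithelium, fell by 0.80 (SE 0.08) in hCA-Tumor against DMH (limma adjusted p = 0.000525). Thbd, the thrombin receptor thrombomodulin, fell by 0.41 (SE 0.08) in hCA-Tumor and by 0.76 (SE 0.08) in hCA-Notumor, both against DMH (limma adjusted p = 0.00648 and 0.00043), the first call ending with array-median scaling (limma adjusted p = 0.0831) and with the values of the deposited table (limma adjusted p = 0.0595). It was 0.35 higher (SE 0.08) in hCA-Tumor than in hCA-Notumor (limma adjusted p = 0.00901), a call that ended with those same alternatives (limma adjusted p = 0.116 and 0.097) and with slide as a block (0.11, limma adjusted p = 0.432).

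Keratins are shared by mesothelium and gut epithelium. Krt7 was 0.52 higher (SE 0.07) in hCA-Tumor than in hCA-Notumor (limma adjusted p = 0.000843), or 0.58 with array-median scaling (limma adjusted p = 0.0516). It fell against DMH both in hCA-Notumor, by 0.79 (SE 0.07, limma adjusted p = 0.000189), and in hCA-Tumor, by 0.28 (SE 0.07, limma adjusted p = 0.0173). Krt19 differed by -0.25 between hCA-Tumor and hCA-Notumor (limma adjusted p = 0.0342), a call that ended without any 1 of those 6 arrays (limma adjusted p = 0.0585 to 0.108) and a value that turned to 0.03 with slide as a block. Calb2, calretinin, differed by 0.29 in hCA-Tumor and 0.49 in hCA-Notumor from DMH and by -0.20 between hCA-Tumor and hCA-Notumor. In limma 0 of these 3 passed, and 0 at an unadjusted p under 0.05. Of the 3 markers below the filter, Bnc1, a zinc-finger factor, and Pkhd1l1, a large receptor-like protein, were each well above background on hCA-Tumor replicate 1 alone. By that 1 of 3 arrays and the dim signals of the other 2, hCA-Tumor was at least 1.66-fold and 2.00-fold above DMH, and at least 2.38-fold and 2.87-fold above hCA-Notumor. Tbx18, a T-box factor of embryonic mesothelium, was well above background on 0 of 9 arrays. Muc16, Ildr2 and Upk3bl had no probe named here.

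**Figure D3:**
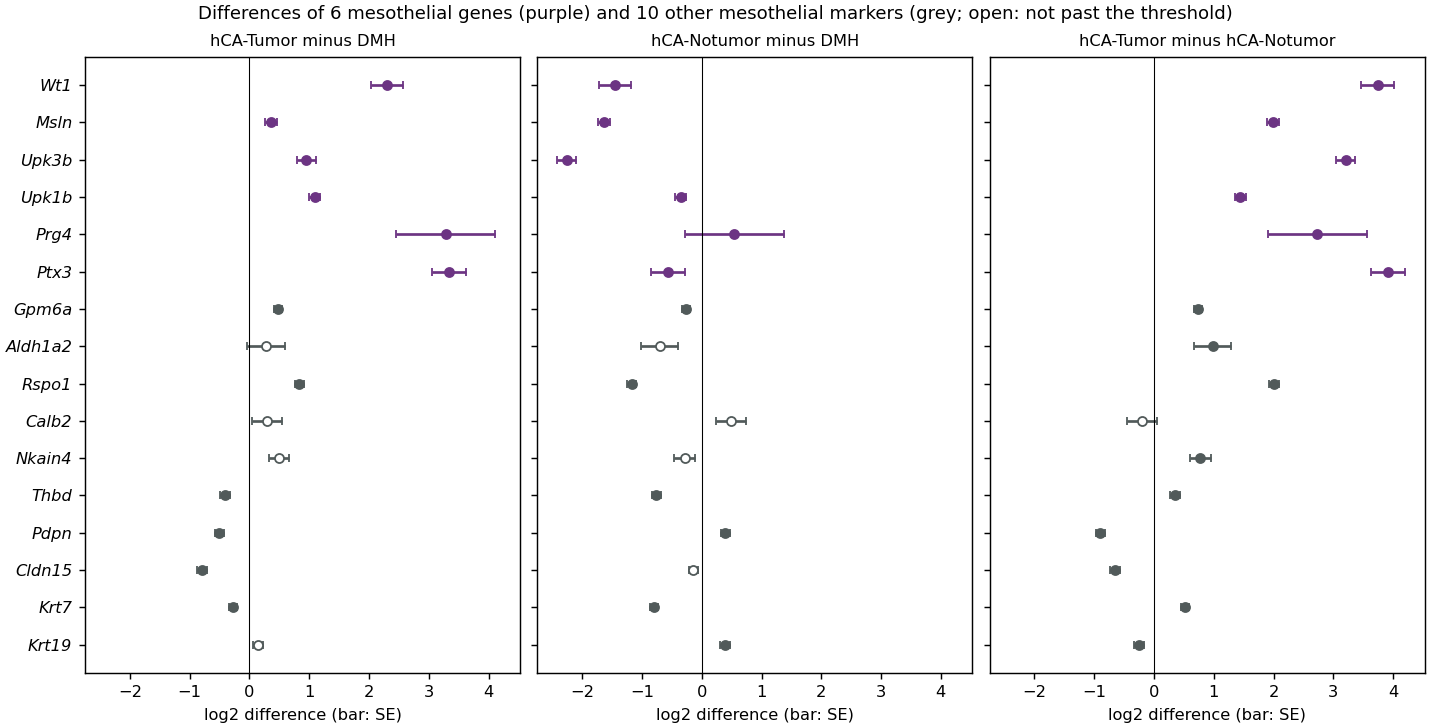
Log2 difference between groups (x axis, bars are SE) for 6 mesothelial genes in purple, shown without a test, and for 10 other mesothelial markers in grey, filled where past the threshold. Rspo1 lies on the same side of 0 as Wt1, Msln and Upk3b in all 3 panels, and Pdpn on the other side.

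Genes around the members were counted from lists by role. For all lists from here on, the shares of all features called higher and lower in the main fit are the measure. They were 21% and 15.9% in hCA-Tumor against DMH and 18.3% and 17.2% in hCA-Notumor against DMH. Between hCA-Tumor and hCA-Notumor they were 26.9% and 20.5%. A count near its share is not read as a result about the list. Of regulators of mesothelium and of retinoid synthesis, 10 of 12 passed the filter. In hCA-Tumor against DMH 4 rose and 2 fell, in hCA-Notumor against DMH 4 rose and 3 fell, and between hCA-Tumor and hCA-Notumor 4 were higher and 1 was lower, with medians of 0, 0.04 and -0.09. Aldh1a3, a retinaldehyde dehydrogenase of epithelia, averaged 1.71 ± 0.16 in hCA-Tumor, -0.22 ± 0.11 in hCA-Notumor and 2.63 ± 0.11 in DMH (SD, n = 3 each). It fell 7.19-fold in hCA-Notumor against DMH (limma adjusted p = 5.33e-06) and by 0.92 log2 in hCA-Tumor (limma adjusted p = 0.00063). Yap1, the coactivator that binds TEAD factors, fell by 0.68 (SE 0.06) in hCA-Notumor against DMH (limma adjusted p = 0.000151). Yap1 also fell in hCA-Tumor against DMH, by 0.18 (SE 0.06, limma adjusted p = 0.04). It was 0.50 higher (SE 0.06) in hCA-Tumor than in hCA-Notumor (limma adjusted p = 0.000392). The part of Yap1 in the levels of the members was not tested. Tead1 itself was well above background on 0 of 9 arrays.

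Of 7 other urothelial genes, 6 were tested: 1 rose and 1 fell in hCA-Tumor against DMH, 0 rose and 3 fell in hCA-Notumor against DMH, and 1 was higher in hCA-Tumor than in hCA-Notumor. Upk3a, the urothelial relative of Upk3b, averaged -2.65 ± 0.06 in hCA-Tumor, -4.30 ± 0.09 in hCA-Notumor and -3.02 ± 0.18 in DMH (SD, n = 3 each). It fell 2.43-fold in hCA-Notumor against DMH (limma adjusted p = 0.00011) and was 3.12-fold higher in hCA-Tumor than in hCA-Notumor (limma adjusted p = 3.45e-05). With the other background correction neither passed (limma adjusted p = 0.493 and 0.0678). Trp63, the factor of basal urothelial cells, was well above background on 0 of 9 arrays. Of 5 relatives of Lrrn4 and Msln, 2 were tested. Lrrn3, a related leucine-rich repeat protein, fell by 0.56 (SE 0.10) in hCA-Notumor against DMH (limma adjusted p = 0.00435), but not past the threshold with the other background correction (limma adjusted p = 0.0732).

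Of 12 genes of the hyaluronan matrix and pentraxins, among which Ptx3 works, 9 were tested: 1 rose and 2 fell in hCA-Tumor against DMH, 1 rose and 3 fell in hCA-Notumor against DMH, and 4 were higher and 1 lower in hCA-Tumor than in hCA-Notumor. Cd44, the hyaluronan receptor, averaged 1.17 ± 0.03 in hCA-Tumor, 0.51 ± 0.03 in hCA-Notumor and 1.67 ± 0.04 in DMH (SD, n = 3 each), and fell against DMH by 0.50 and by 1.16 (limma adjusted p = 0.000308 and 6.35e-06). Has2, which synthesizes hyaluronan, fell by 0.86 (SE 0.17) in hCA-Notumor against DMH (limma adjusted p = 0.0066), a call that ended within slide 1 (-0.50, limma adjusted p = 0.0521) and with the other background correction (limma adjusted p = 0.535). Of 7 tested genes that induce Ptx3 in other settings, 1 rose and 2 fell in hCA-Tumor against DMH and 0 rose and 5 fell in hCA-Notumor against DMH, and 4 were higher and 0 lower in hCA-Tumor than in hCA-Notumor. Il1b fell 2.43-fold in hCA-Tumor and 2.15-fold in hCA-Notumor against DMH (limma adjusted p = 0.000366 and 0.000494). Tnf fell by 0.74 and by 0.75 in the same comparisons (SE 0.04, limma adjusted p = 4.87e-05 and 1.98e-05). Il6 rose by 0.55 (SE 0.13) in hCA-Tumor against DMH (limma adjusted p = 0.0125), with 1 of 3 DMH arrays well above background, and was 1.04 higher (SE 0.13) in hCA-Tumor than in hCA-Notumor (limma adjusted p = 0.000554). Both calls ended with the other background correction (limma adjusted p = 0.631 and 0.551), and the first also with other scalings and with a trended fit (limma adjusted p = 0.0826 to 0.145).

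Genes of the tissues that lie beside mesothelium in the colon wall moved between the same groups. Of 12 tested genes of serosal and adventitial fibroblasts, 6 rose and 2 fell in hCA-Tumor against DMH, 2 rose and 6 fell in hCA-Notumor against DMH, and 6 were higher and 3 lower in hCA-Tumor than in hCA-Notumor. The medians were 0.08, -0.16 and 0.12, against 0.08, 0.07 and 0 over all features. Their summed signal, in multiples of the 75th percentile, was 131 to 141 in hCA-Tumor, 73.2 to 76.8 in hCA-Notumor and 101 to 104 in DMH, of which the collagens Col3a1 and Col1a1 made up the most, 40.5% to 50.6% and 13.5% to 21.5% on the 9 arrays. Col1a1, a chain of type I collagen, averaged 4.84 ± 0.09 in hCA-Tumor, 3.34 ± 0.04 in hCA-Notumor and 4.05 ± 0.08 in DMH (SD, n = 3 each). With slide as a block, 6 fibroblast genes rose and 3 fell in hCA-Tumor against DMH, 2 rose and 4 fell in hCA-Notumor against DMH, and 4 were higher and 1 lower in hCA-Tumor than in hCA-Notumor. Col1a1 rose by 0.79 (SE 0.06) in hCA-Tumor and fell by 0.70 (SE 0.06) in hCA-Notumor against DMH (limma adjusted p = 0.000235 and 0.000239).

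Smooth muscle genes rose in 8 of 8 in hCA-Tumor against DMH, with a median of 1.24, and in 6 of 8 in hCA-Notumor, with a median of 0.77. With slide as a block, 1 of 8 rose in hCA-Notumor, with a median of 0.32. Between hCA-Tumor and hCA-Notumor, 3 of 8 were higher and 0 lower in hCA-Tumor, with a median of 0.45. For that comparison slide as a block gave 8 of 8 higher, with a median of 1.02. The summed signals of this list were 591 to 770 in hCA-Tumor, 417 to 517 in hCA-Notumor and 222 to 382 in DMH. Des, desmin of muscle filaments, rose by 1.26 (SE 0.19) in hCA-Tumor and by 1.17 (SE 0.19) in hCA-Notumor (limma adjusted p = 0.00241 and 0.00337). Of 7 tested genes of enteric neurons and glia, 5 rose and 0 fell in hCA-Tumor against DMH, and 0 passed in hCA-Notumor. With slide as a block 2 rose in hCA-Tumor and 1 in hCA-Notumor. In hCA-Tumor 3 were higher and 0 lower than in hCA-Notumor, and 2 were higher with slide as a block. Tac1, the precursor of substance P, rose by 1.30 (SE 0.13) in hCA-Tumor (limma adjusted p = 0.000425). Their summed signals were 7.11 to 8.05 in hCA-Tumor, 3.94 to 5.74 in hCA-Notumor and 3.31 to 3.78 in DMH.

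Adipocyte genes went the other way. Of 9 tested, 8 fell and 0 rose in both comparisons with DMH, with medians of -3.21 in hCA-Tumor and -3.29 in hCA-Notumor. Adipoq, the fat cell hormone adiponectin, averaged -3.49 ± 1.54 in hCA-Tumor, -5.10 ± 1.17 in hCA-Notumor and 0.96 ± 0.09 in DMH (SD, n = 3 each). It fell by 4.45 (SE 0.83) in hCA-Tumor (limma adjusted p = 0.00516) and by 6.06 (SE 0.83) in hCA-Notumor (limma adjusted p = 0.00138), both against DMH. The list's summed signals were 17.4 to 26.3 in hCA-Tumor, 14.0 to 20.7 in hCA-Notumor and 53.5 to 59.4 in DMH. Every marker with a named probe in the fibroblast, smooth muscle, neuronal and adipocyte lists was well above background on some array. The fibroblast sums had the order hCA-Tumor above DMH above hCA-Notumor. They were carried by both collagens and do not stand for the list, whose median in hCA-Tumor against DMH was 0.08, as over all features. The muscle and adipocyte sums had other orders. The part of these tissues in the levels of the mesothelial genes was not tested.

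Keratins and adhesion genes of simple epithelium were well above background on every array, with summed signals of 604 to 656 in hCA-Tumor, 646 to 688 in hCA-Notumor and 547 to 613 in DMH. Of 6 tested, 1 rose in hCA-Tumor and 2 rose in hCA-Notumor against DMH and 0 fell, with medians of 0.09 and 0.02. Of 6 genes of peritoneal macrophages and B1 cells, the free cells of the peritoneal cavity, 0 rose and 3 fell in hCA-Tumor against DMH, and 1 rose and 2 fell in hCA-Notumor. Of 6 endothelial genes, 0 rose and 1 fell in each comparison with DMH. At an unadjusted limma p under 0.05, 2 neuronal genes rose in hCA-Notumor and 1 endothelial gene in hCA-Tumor, both against DMH, and the other counts of 0 genes in these lists against DMH stayed at 0.

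**Figure D4:**
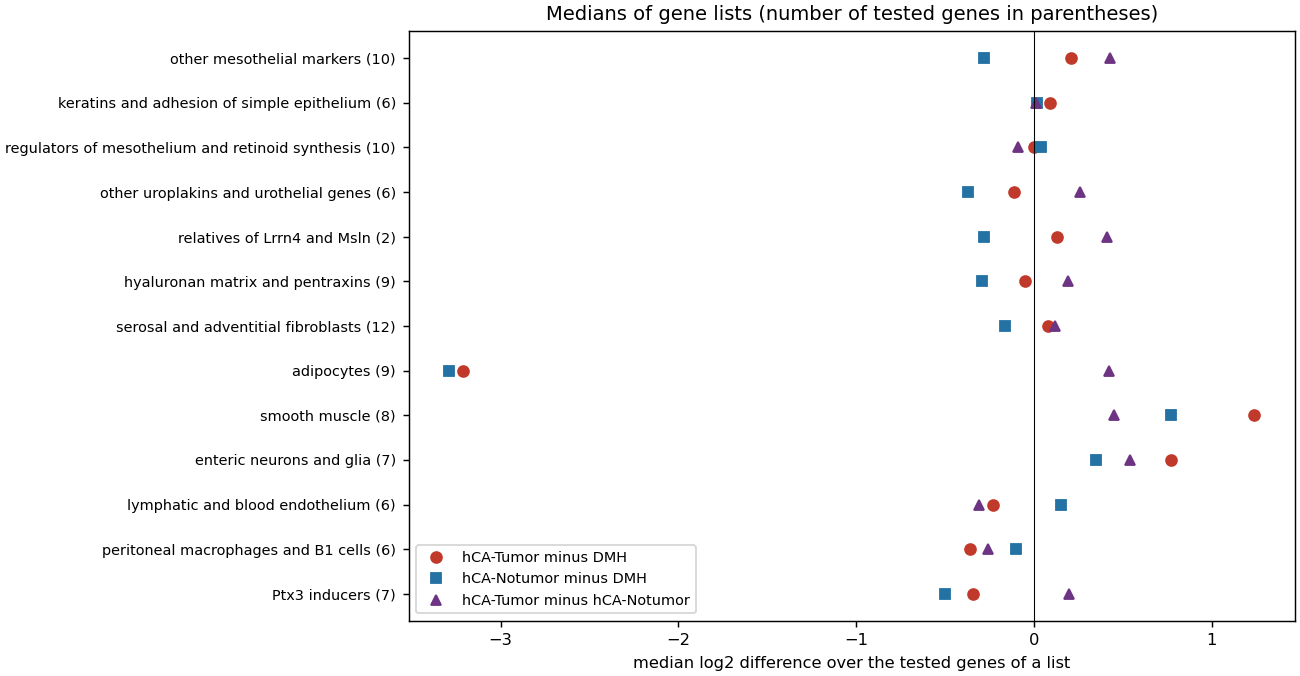
Median log2 difference over the tested genes of each list (x axis), for the 3 comparisons between groups, with the number of genes tested in parentheses. Adipocyte medians lie at -3.21 and -3.29 against DMH and smooth muscle at 1.24 and 0.77, while the other mesothelial markers lie at 0.21, -0.28 and 0.43.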

How the data were processed

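Labelled RNA of 9 samples was hybridised to Agilent 1-colour arrays, 1 array per sample, and read with Agilent Feature Extraction 10.5.1.1, per the submitters' processing notes. Per the file headers, the deposited intensity values are background-subtracted processed signals, beside median spot and background intensities. The authors' deposited whole-series table of log2 values (23726 probes) equalled log2 of the processed signal minus the median of the array (r at least 0.999995) and served as an alternative. Each array's 75th percentile over spots that were neither controls nor outliers was subtracted from log2 of its signal; 0 spots were saturated.

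Probes were named by transcript accession through RefSeq (assembly GRCm38.p6; the files use mm9): 25097 of 41174 had 1 symbol and 16077 stay unnamed here. Kept were the 27221 probes that some group had well above background on each of its 3 arrays, and the brightest of a gene stood for it, giving 21105 features. All 9 arrays entered 1 limma fit (limma 3.58.1, R 4.3.3), with Benjamini-Hochberg adjustment at 0.05 over all features, and the fit was tested on simulated data. Values carry 3 arrays per group, which limits their precision. Likeness of profiles is the root mean square difference after centring each gene. Named genes are all members, all listed mesothelial markers, up to 6 per other list with the largest differences past the threshold, and the nearest profiles (8 to the mean, 3 per member). Cdh5, Tead1 and Trp63 were named after their values were seen. Members and the 14 lists were chosen with earlier results of these data known. The alternatives covered scaling, background correction, filters, probe choice, weights, slide and replicate blocks, and leaving out each array.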

Additional observations from a re-analysis of the deposited data

Results flagged for a closer look

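In 14 named genes the 2 high calcium groups lay on opposite sides of DMH, every array of one group above and every array of the other below all DMH arrays. Of all 21105 features, 5.09% had hCA-Tumor above and hCA-Notumor below, and 5.11% the opposite. The 14 leave out genes picked for likeness to the members, some of which met the rule too, such as Aqp5 and Timp1. They also leave out Ptx3, whose brighter probe met the rule with no hCA-Notumor or DMH array well above background. Of the members counted, Wt1, Msln, Upk3b, Upk1b and Lrrn4 had hCA-Tumor above. Msln and Upk1b were 1.99 and 1.44 log2 units higher in hCA-Tumor than in hCA-Notumor. Wt1, Upk3b and Lrrn4, well above background on no hCA-Notumor array, were at least 6.29-fold, 8.97-fold and 2.43-fold higher. The value for Lrrn4 rests on 1 of 3 hCA-Tumor arrays. Of the DMH arrays, 1 of 3 measured Wt1 and Lrrn4, so their place beside DMH rests on few measured values. For these 5 the difference was not tested, since it entered the choice of the genes.

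The same way lay Gpm6a (0.74), Rspo1 (2.01), Upk3a (1.64), Il6 (1.04, measured on 1 of 3 DMH arrays), Col1a1 (1.49), Col3a1 (1.12) and Cd34 (0.49), in log2 units of hCA-Tumor minus hCA-Notumor, with limma adjusted p of 8.12e-06 to 0.000554. Pdpn (-0.90) and Hyal1 (-0.76) lay the opposite way (limma adjusted p = 0.000149 and 6.34e-05). The call of Hyal1 ended with the other background correction (limma adjusted p = 0.143), as did those of Gpm6a, Upk3a and Il6 given above. All 14 patterns use the same 3 DMH arrays.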

How the results depend on the processing

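Features called in hCA-Tumor against DMH (7784) numbered 2177 with array-median scaling, 4161 with the other background correction and 2403 with the deposited log2 table. In hCA-Notumor against DMH (7501) they numbered 2927, 3870 and 3339 under the same alternatives, and 13252 with array weights. In hCA-Tumor against hCA-Notumor (10012) they numbered 4707, 6306 and 4783, and 6289 with slide as a block. Calls among the other mesothelial markers went to 3 (array median), 3 (background correction) and 3 (deposited table) from 6 in hCA-Tumor against DMH, and to 3 and 3 (array median, background correction) from 6 in hCA-Notumor against DMH. Leaving out 1 array gave 5955 to 8041, 5267 to 9402 and 8249 to 12247 features, and 5 to 7, 5 to 6 and 7 to 9 markers, in the same order of comparisons.

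The share of calls that were rises was 56.9%, 51.6% and 56.7%, but 37.4%, 32.4% and 61% with array-median scaling and 39.5%, 29.3% and 63% with the deposited table. In hCA-Tumor against hCA-Notumor it was 46.7% without hCA-Tumor replicate 3 and 48.4% with array weights. Array-median scaling and the deposited table put the median of all features in hCA-Notumor against DMH at -0.11 and -0.14, against 0.07. The cause was not tested.

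With the replicate number as a block, 6411, 5951 and 8803 features were called. Deviations of same-numbered arrays correlated at -0.56 to 0.219, and those of differently numbered arrays reached 0.569. Deviations from a mean of 3 arrays are tied to one another, so these values cannot decide whether the numbers pair the arrays.

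2 values turned sign past a threshold, Pdpn in hCA-Notumor against DMH with its probes averaged (-0.0046, limma adjusted p = 0.983) and Krt19 in hCA-Tumor against hCA-Notumor with slide as a block (0.028, limma adjusted p = 0.827). Of the alternatives for other named genes 2428 left the call as it was, 231 ended one and 48 made one. For the members 337 moved the value by less than the spread between arrays and 29 by more. Signals near the local background, of which the array median was 33.5 to 50, limit Wt1, Upk3b, Lrrn4, Prg4 and Ptx3.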
